A study of Mus musculus with 9 samples.

Results

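Expression of 8 regulators of hair cell development, Pou4f3, Atoh1, Gfi1, Lhx3, Barhl1, Nhlh1, Hes6 and Rbm24, was followed in mouse cochleae at postnatal day 3. The genes were chosen by symbol as Pou4f3, the factor upstream of it, its reported targets and partner regulators, and were found by Ensembl identifier among the 51912 genes of the series. RNA-seq libraries came from Pou4f3(Δ/Δ), Pou4f3(Δ/+) and Pou4f3(+/+) cochleae, called HOM, HET and WT, with 3 libraries in each group. Δ stands for the mutant Pou4f3 allele; the labels give neither its extent nor the strain or any pooling of animals. The question addressed was how the transcripts of this network differ with 0, 1 or 2 normal Pou4f3 alleles.

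Hair cells, the mechanosensory cells of the inner ear, are specified by the basic helix-loop-helix (bHLH) factor Atoh1 from precursors that also give rise to supporting cells. Atoh1 activates the POU-domain factor Pou4f3, and Pou4f3 in turn maintains the zinc finger repressor Gfi1 and the LIM homeodomain factor Lhx3; without Pou4f3, mouse hair cells begin to differentiate and are then lost. Barhl1 is a homeodomain factor needed for long-term hair cell survival, Nhlh1 a bHLH factor of young neurons and hair cells, Hes6 a bHLH protein that opposes Hes1, and Rbm24 an RNA-binding splicing regulator of hair cells and striated muscle.

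The groups follow the sample titles. The genotype field of all 9 samples disagrees with the title of the same sample, giving WT where the title says HET, HET where it says HOM, and HOM where it says WT, so each direction below holds for the titles. The third HET library is replicate 3 by its title and carries the number 4 in its data column. The HET and WT libraries list every gene, whereas each HOM library lists 1137 genes. In all 1137 (100%) the 3 HOM libraries lay wholly above or wholly below the 3 WT libraries, as a selection on that difference would give, so calls of listed genes in HOM against WT are given as description. Calls in HOM against HET cover the same listed genes and are given as description too. Of 15391 genes that reached 1 FPKM in no fewer than 3 HET or WT libraries, 7.35% were listed in HOM. Of the 8 regulators, 4 were listed (Pou4f3, Atoh1, Gfi1 and Lhx3), and Barhl1, Nhlh1, Hes6 and Rbm24 were not analysed here in HOM. Values are FPKM, fragment counts scaled to the length of the transcript and the depth of the library. Depth, recovered from the steps between low values, was about 14310000 to 15750000 fragments in HOM, 15550000 to 17410000 in HET and 14570000 to 17020000 in WT libraries, and in HOM it rests on 16 to 20 low values per library.

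Pou4f3 (ENSMUSG00000024497, chromosome 18, 42394539 to 42397249 in GRCm38, plus strand) was at 5.92, 1.36 and 9.39 FPKM in HOM replicates 1 to 3, at 24.21, 21.74 and 25.56 FPKM in HET, and at 25.02, 24.49 and 26.97 FPKM in WT. The HOM libraries were the 3 lowest and did not overlap with either other group, whereas HET and WT overlapped. The lowest HOM value still rested on 50 recovered fragments, with a 95% Poisson interval of 1.02 to 1.80 FPKM that covers counting error only. Relative to the WT mean, HOM kept 21.8% ± 15.8 and HET 93.5% ± 7.6 (SD, n = 3 each). Whether the remaining Pou4f3 RNA lies inside or outside the altered part of the gene was not tested.

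Atoh1, the factor upstream of Pou4f3 (ENSMUSG00000073043, chromosome 6, 64729125 to 64731245, a single-exon gene on the plus strand), was at 1.88, 1.61 and 3.47 FPKM in HOM, at 4.88, 3.33 and 4.94 FPKM in HET, and at 4.68, 4.34 and 4.77 FPKM in WT. All HOM values lay below WT, but HOM replicate 3 lay above HET replicate 2. HOM kept 50.5% ± 21.9 of the WT mean and HET 95.4% ± 19.9 (SD, n = 3 each).

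Gfi1, a repressor on which hair cell survival depends (ENSMUSG00000029275, chromosome 5, 107716657 to 107726036, minus strand), was at 1.47, 0.21 and 1.91 FPKM in HOM, at 7.51, 8.42 and 7.69 FPKM in HET, and at 8, 7.17 and 7.63 FPKM in WT. The HOM libraries lay far below both other groups, which overlapped. HOM kept 15.7% ± 11.6 and HET 103.6% ± 6.34 of the WT mean (SD, n = 3 each). HOM replicate 2 held 10 recovered fragments of Gfi1, an interval of 0.0987 to 0.379 FPKM.

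Lhx3, a LIM homeodomain factor (ENSMUSG00000026934, chromosome 2, 26200212 to 26208289, minus strand), was at 0.55, 0.02 and 1.36 FPKM in HOM, at 4.63, 3.43 and 4.29 FPKM in HET, and at 5.19, 4.46 and 6.36 FPKM in WT. HOM lay below the other groups in every library, and HET lay below WT on average with overlap in a single pair of libraries. HOM kept 12.1% ± 12.6 and HET 77.1% ± 11.6 of the WT mean (SD, n = 3 each). The value of HOM replicate 2 was 1 recovered fragment, with a counting interval of 0.000546 to 0.120 FPKM. Exons of Gfi1 and Lhx3 overlap antisense genes, A430072P03Rik and Gm27196, and no source used here says whether reads were assigned by strand, so reads of a pair cannot be told apart. A430072P03Rik reached at most 0.24 FPKM in HET and WT libraries, and Gm27196 ran between 0.22 and 0.66 FPKM there.

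**Figure D1:**
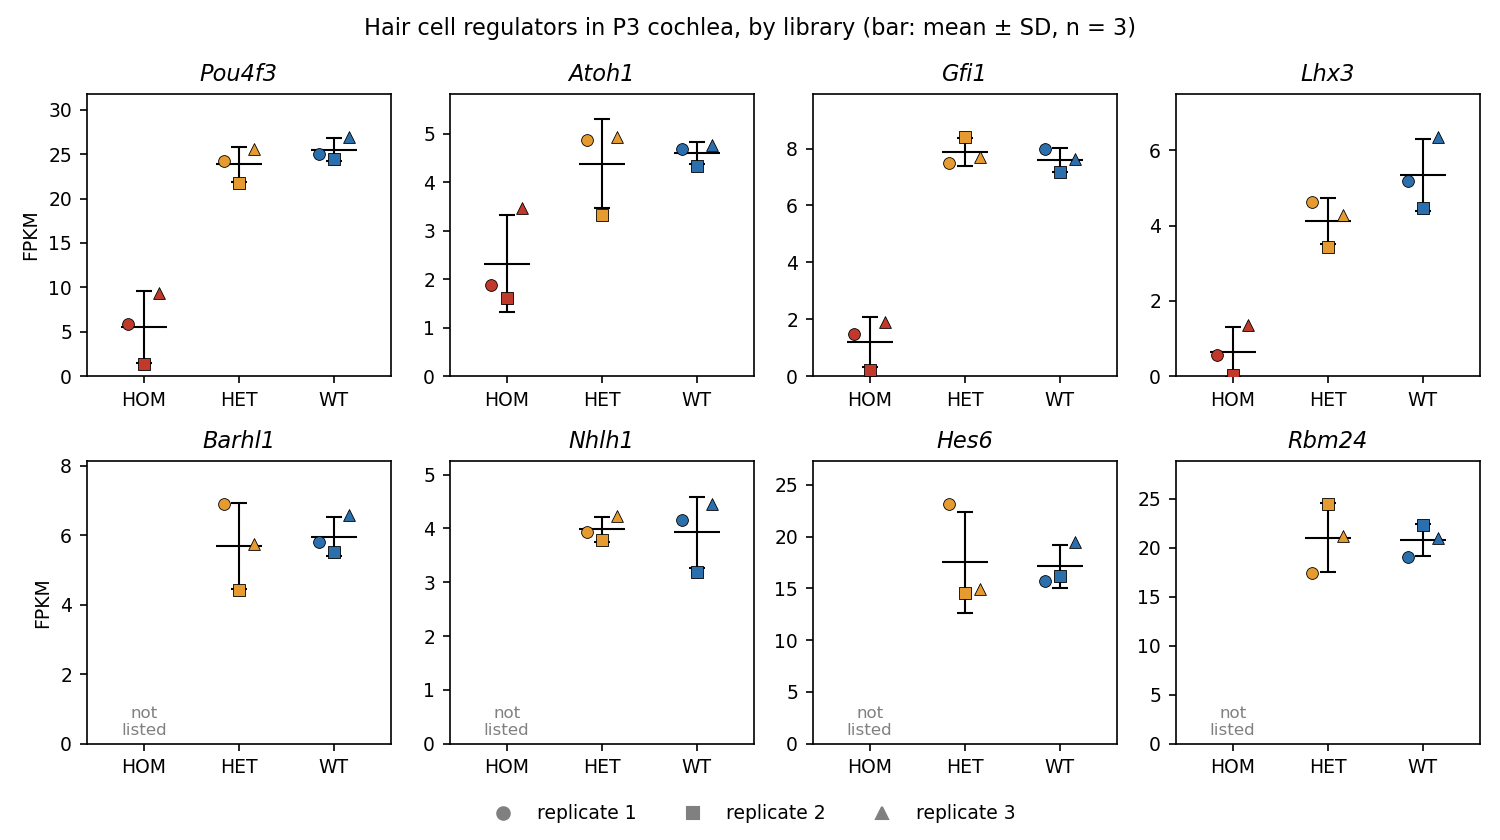
FPKM of the 8 regulators in each library, with groups HOM, HET and WT along the x axis, a marker shape for each replicate number and a bar with whiskers for mean ± SD (n = 3). Pou4f3, Gfi1 and Lhx3 sit lower in all 3 HOM libraries than in any HET or WT library, Atoh1 in HOM overlaps with HET only, and the 4 genes in the lower row are not listed in HOM and overlap between HET and WT.

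Among the regulators known in HET and WT alone, Barhl1 (chromosome 2, 28907679 to 28916668, minus strand) was at 6.89, 4.43 and 5.73 FPKM in HET and 5.79, 5.50 and 6.57 FPKM in WT. Nhlh1 (chromosome 1, 172052292 to 172057573, minus strand) was at 3.93, 3.78 and 4.23 FPKM in HET and 4.15, 3.18 and 4.45 FPKM in WT. Both pairs of groups overlapped throughout. Hes6 (chromosome 1, 91411483 to 91414038, minus strand) was at 23.14, 14.52 and 14.91 FPKM in HET and 15.69, 16.21 and 19.49 FPKM in WT. Rbm24 (chromosome 13, 46418434 to 46431095, plus strand) was at 17.39, 24.45 and 21.23 FPKM in HET and 19.08, 22.27 and 21.03 FPKM in WT. HET replicate 1 held the highest Hes6 and Barhl1 values and the lowest Rbm24 value of the 6 libraries.

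The 250 bases before each annotated start were searched for motifs of the factors in this network, on both strands: the E-boxes CAGCTG and CAGATG, the kind of site that bHLH factors such as Atoh1 bind, and CATTAA, the core of the Brn-3 (Pou4f) site. RefSeq's promoter table (GRCm38.p6) held 11 starts of 7 of the regulators, and none of Pou4f3. At least 1 E-box was found before 6 of these starts, belonging to Lhx3, Barhl1, Nhlh1 and Hes6, against 25.5% of 32851 starts in the table, and CATTAA before none, against 7.91%. Barhl1 and Hes6 each gave more than 1 of the 6 starts, so these are not independent, and enrichment was not tested. No E-box of this spelling stood before the starts of Atoh1, Gfi1 or Rbm24, or before the outer start of Lhx3. Gfi1 and Lhx3, the listed regulators that kept the lowest share of the WT mean in HOM, are shown with 1 start each. Beside them stand the bHLH genes Nhlh1 and Hes6, with 1 start each that has an E-box. All are written 5′ to 3′ on the strand of the gene, with matches in capitals.
Gfi1, chr5:107725806-107726055, minus strand: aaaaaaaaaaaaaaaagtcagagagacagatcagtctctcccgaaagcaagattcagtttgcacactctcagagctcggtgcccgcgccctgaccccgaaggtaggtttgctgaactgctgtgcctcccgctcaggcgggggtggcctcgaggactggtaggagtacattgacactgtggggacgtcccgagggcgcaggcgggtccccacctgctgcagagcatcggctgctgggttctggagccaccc
Lhx3, chr2:26206576-26206825, minus strand: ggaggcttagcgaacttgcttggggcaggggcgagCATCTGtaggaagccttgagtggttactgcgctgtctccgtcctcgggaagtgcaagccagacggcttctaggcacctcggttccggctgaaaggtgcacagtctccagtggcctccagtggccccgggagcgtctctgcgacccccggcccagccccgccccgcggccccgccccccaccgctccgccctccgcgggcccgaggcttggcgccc
Nhlh1, chr1:172057597-172057846, minus strand: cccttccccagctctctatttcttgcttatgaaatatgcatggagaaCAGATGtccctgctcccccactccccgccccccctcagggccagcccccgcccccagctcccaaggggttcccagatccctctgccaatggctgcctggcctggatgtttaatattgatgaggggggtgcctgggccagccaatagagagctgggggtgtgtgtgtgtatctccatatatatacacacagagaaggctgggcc
Hes6, chr1:91414039-91414288, minus strand: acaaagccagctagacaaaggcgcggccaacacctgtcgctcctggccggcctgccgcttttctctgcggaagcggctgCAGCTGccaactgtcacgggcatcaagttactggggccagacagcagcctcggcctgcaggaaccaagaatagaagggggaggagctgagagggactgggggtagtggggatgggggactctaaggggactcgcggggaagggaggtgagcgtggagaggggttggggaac
The match in Lhx3, 215 bases before its inner start, is CAGATG read on the opposite strand, and that of Nhlh1 begins 203 bases before the start. In Hes6 the palindromic CAGCTG begins 171 bases before the start. A match is a match of letters only.

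On this per-length scale Pou4f3 had the highest level of the 8 regulators in WT, at 25.5 ± 1.31 FPKM, apart from Rbm24 at 20.8 ± 1.61 FPKM (SD, n = 3 each). Hes6 followed at 17.1 ± 2.06 FPKM and overlapped with Rbm24. Gfi1, at 7.60 ± 0.416 FPKM, lay apart from Hes6 above it and from Barhl1 below it, which was at 5.95 ± 0.553 FPKM. Lhx3 (5.34 ± 0.958), Atoh1 (4.6 ± 0.227) and Nhlh1 (3.93 ± 0.664) came last, each overlapping with its neighbour in the order. In HET the order was the same except that Atoh1 stood above Lhx3, and Pou4f3 and Rbm24 overlapped.

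In HOM against WT, the 4 listed regulators all passed limma's threshold and fell, on genes where 65.4% of 1109 tested passed in that direction and 69.8% of 1137 had all HOM libraries below WT; nothing is read from this count, since every listed gene lay apart in this contrast; no source used here states the listing rule. Pou4f3 changed by -2.26 on the log2(FPKM + 1) scale (SE 0.51, 95% interval -3.49 to -1.02, limma adjusted p = 0.0114), Gfi1 by -2.06 (SE 0.32, adjusted p = 0.00396), Lhx3 by -2.02 (SE 0.30, adjusted p = 0.00366) and Atoh1 by -0.79 (SE 0.20, adjusted p = 0.0150). The exact permutation p was 0.1 for each, two-sided, the smallest that 3 against 3 libraries allow. Every listed gene reaches this value, since all lay apart in this contrast. Without HOM replicate 2, Pou4f3 changed by -1.64 (limma adjusted p = 0.000777). The pseudocount compresses changes of genes that reach low levels. With a pseudocount of 0.1 the changes were -3.47 for Lhx3, -2.95 for Gfi1, -2.55 for Pou4f3 and -1.03 for Atoh1, so that Lhx3 and not Pou4f3 had the largest change, its lowest value being the 1 fragment of HOM replicate 2. Fewer hair cells and less RNA in each hair cell cannot be told apart in these bulk libraries.

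In HOM against HET, all 4 regulators passed, against 36.3% of 1090 listed genes that passed as lower. Only listed genes have HOM values and all of them lay apart from WT, so these calls are not independent of the listing. Gfi1 changed by -2.11 (95% interval -2.87 to -1.35, limma adjusted p = 0.00473), Pou4f3 by -2.16 (-3.39 to -0.94, adjusted p = 0.0187) and Lhx3 by -1.71 (-2.43 to -1.001, adjusted p = 0.00721). With a pseudocount of 0.1 these changes were -3.004 for Gfi1, -2.45 for Pou4f3 and -3.11 for Lhx3. For Atoh1 the change was -0.72 (-1.28 to -0.16, limma adjusted p = 0.0448, exact permutation p = 0.2), and its groups overlapped, whereas those of the other 3 did not; the groups were apart in 61.7% of all listed genes, with HOM below HET in 46.5%. The Atoh1 call was lost when any library but HOM replicate 3 was left out (adjusted p 0.0654 to 0.137), under both scalings of the libraries (0.0711 and 0.0841) and with a pseudocount of 0.1 (0.0516). The Pou4f3 call was lost without HET replicate 2 (adjusted p = 0.0654) or HET replicate 3 (0.0732), at nearly the same change (-2.22 and -2.11), and without HOM replicate 2 its change was -1.55 (0.00245). Both comparisons use the same HOM libraries and the same listed genes.

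In HET against WT, none of the 8 regulators changed by limma's test (0 of 8, as for 0% of 15391 genes). With all 6 libraries, 1.73% of all genes (266), and 0 regulators, had an unadjusted limma p under 0.05. Without HET replicate 1 this held for 1833 of 15151 genes, and without HET replicate 1 and WT replicate 3 for 2356 of 14844. No regulator was among them, and 0 genes passed after adjustment in either fit. Leaving out any other single library gave 167 to 316 genes. The low share with all 6 libraries thus depends on HET replicate 1 and does not show that the groups are alike. The largest difference was that of Lhx3, -0.30 (95% interval -0.66 to 0.05, unadjusted limma p = 0.0780, adjusted p = 1.00, exact permutation p = 0.2). Leaving out 1 library moved it between -0.41 (without WT replicate 2) and -0.19 (without WT replicate 3), and the limma adjusted p without WT replicate 2 was 1.00 (0.0415 unadjusted). For Pou4f3 itself the interval was -0.30 to 0.11 around -0.09, for Gfi1 -0.15 to 0.24 around 0.04, and for Atoh1 -0.41 to 0.27 around -0.07. Barhl1 (-0.43 to 0.29), Nhlh1 (-0.27 to 0.32), Rbm24 (-0.31 to 0.32) and Hes6 (-0.44 to 0.46) had intervals on both sides of 0 as well. The median change of the 8 was -0.03, against 0.001 over all genes tested. All 8 overlapped between the groups, and 5.94% of expressed genes did not. These intervals leave room for changes of either sign up to their bounds, and do not show that a single normal allele gives the WT level.

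**Figure D2:**
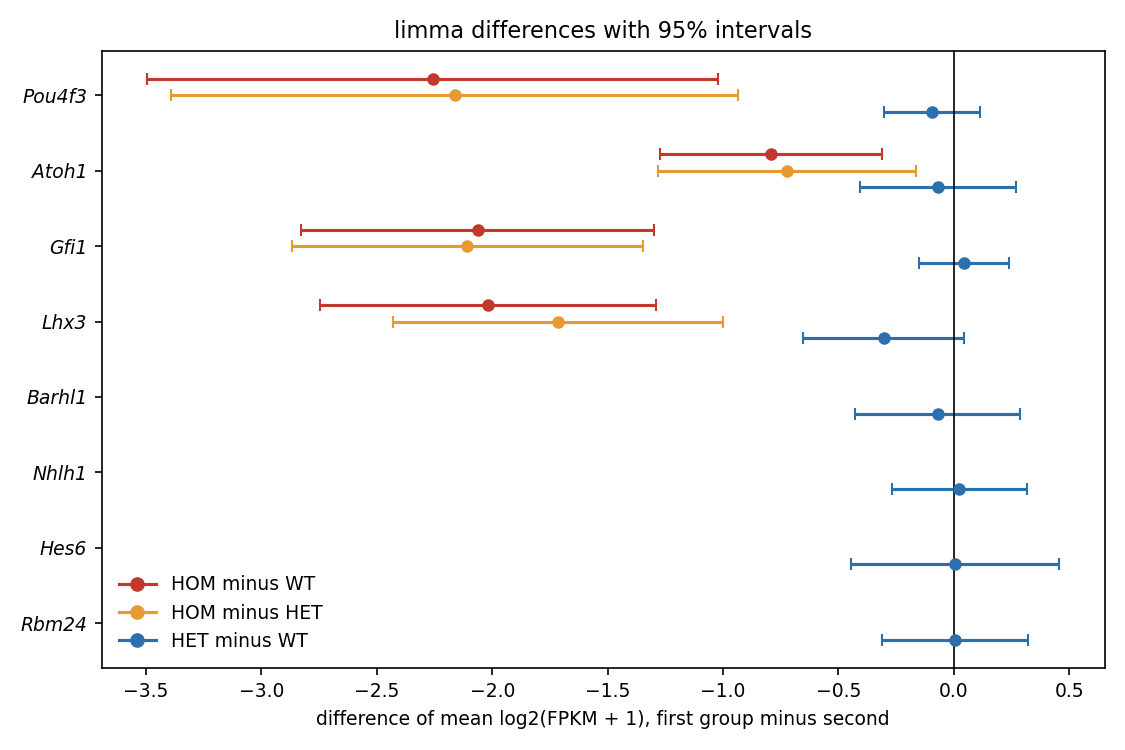
Differences of mean log2(FPKM + 1) with 95% intervals from limma, for HOM minus WT, HOM minus HET and HET minus WT. The intervals of Pou4f3, Gfi1, Lhx3 and Atoh1 lie below 0 in both HOM comparisons, and those of all 8 genes include 0 in HET minus WT.

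Ratios between genes of one library, which do not depend on the scaling of libraries, were compared among the 4 listed regulators. The ratio of Pou4f3 to Atoh1 was 3.15, 0.845 and 2.71 in HOM, 4.96, 6.53 and 5.17 in HET, and 5.35, 5.64 and 5.65 in WT. Every HOM ratio lay below every other. The ratio of Atoh1 to Gfi1 was 1.28, 7.67 and 1.82 in HOM, 0.650, 0.395 and 0.642 in HET, and 0.585, 0.605 and 0.625 in WT. Here every HOM ratio lay above every other, so that Atoh1 RNA exceeded Gfi1 RNA per length in HOM and was below it in HET and WT. The ratio of Pou4f3 to Gfi1 was 4.03, 6.48 and 4.92 in HOM, 3.22, 2.58 and 3.32 in HET, and 3.13, 3.42 and 3.53 in WT, again with HOM above both other groups.

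Against Lhx3, which rested on 1 fragment in HOM replicate 2, ratios are given for HOM replicates 1 and 3 only. Pou4f3 over Lhx3 was 10.8 and 6.90 in these HOM libraries, against 5.23 to 6.34 in HET and 4.24 to 5.49 in WT. Atoh1 over Lhx3 was 3.42 and 2.55 in HOM, against 0.971 to 1.15 in HET and 0.75 to 0.973 in WT. Gfi1 over Lhx3 was 2.67 and 1.40 in HOM, 1.62 to 2.45 in HET and 1.20 to 1.61 in WT. HOM overlapped with both other groups in this last ratio, and HET lay above WT in it in every library. Across 6 pairs of genes and 3 comparisons, 18 exact permutation tests were made. Their smallest p, 0.1, was found for 11 of them and became 0.164 after Benjamini-Hochberg adjustment, so that none could pass 0.05 with 3 libraries a group. The 6 tests of HOM ratios to Lhx3 include HOM replicate 2 and its 1 fragment, and 4 of the 11 are among them.

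**Figure D3:**
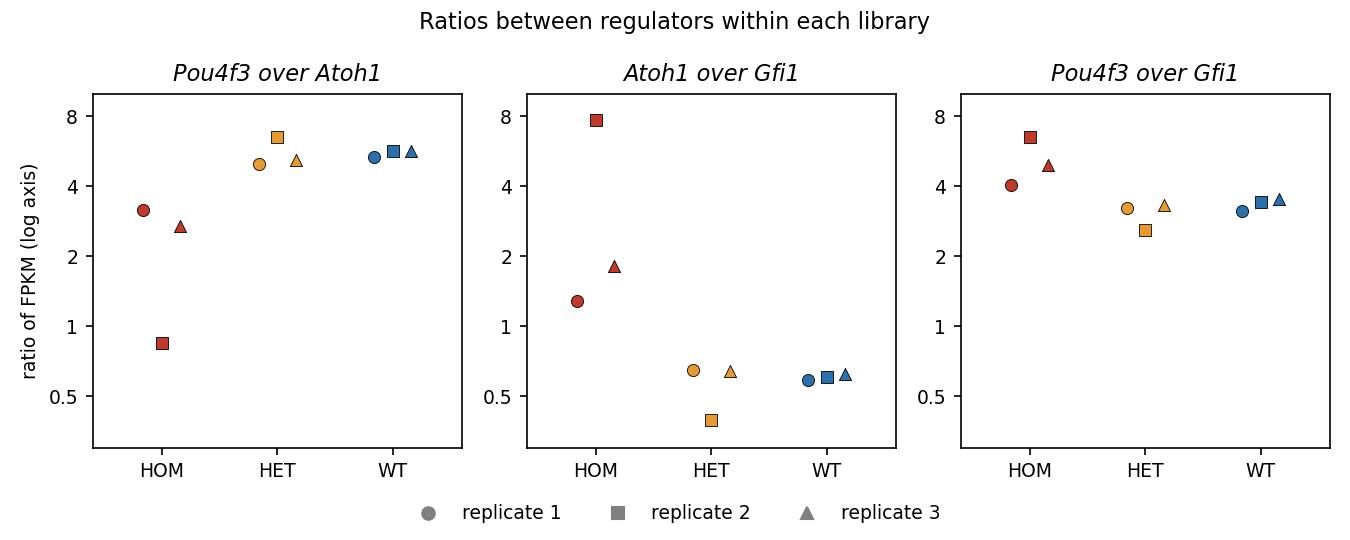
Ratios of FPKM between 2 regulators within each library, on a log axis, with a marker shape for each replicate number. Pou4f3 over Atoh1 is lower, and Atoh1 over Gfi1 and Pou4f3 over Gfi1 are higher, in each HOM library than in any HET or WT library; HOM replicate 2 lies farthest out in all 3 panels.

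Hair cell genes that encode no regulator gave a scale for these losses. Of 16 such genes, 12 were listed in HOM; 12 fell against WT and 10 against HET by limma's test. Of all expressed genes 7.35% were listed, and of listed genes 65.4% passed as lower against WT and 36.3% against HET, so that the count against WT largely follows from the listing. They kept between 2.20% (Otof, the calcium sensor of the hair cell synapse) and 90.7% (Ush1c, a scaffold of the tip link) of WT, with a median of 30.9%. Since every listed gene differs from WT, this median leaves out any gene that did not and may be biased low; the Ush1c difference on the log2 scale, -0.14, was smaller than the median over all listed genes, -0.22. Lhx3 and Gfi1 kept less than all but 3 of the 12, namely Otof, the channel gene Tmc1 (7.03%) and the myosin gene Myo15 (7.98%). Pou4f3 stood between Ptprq (21.1%), a phosphatase of the stereocilia, and Ocm (26.9%), which encodes oncomodulin, a calcium-binding protein of outer hair cells. Atoh1 kept more than 10 of them, below only Myo6 (68.1%) and Ush1c.

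Divided by the geometric mean of these 12 genes in the same library, Pou4f3 was at 1.66, 0.724 and 2.09 in HOM, at 1.73, 1.45 and 1.65 in HET, and at 1.76, 1.69 and 1.80 in WT. HOM and WT overlapped (two-sided exact permutation p = 0.7), with HOM replicate 2 below and HOM replicate 3 above all HET and WT libraries. Neither a loss beyond that of the structure genes nor its absence is shown by 3 libraries a group, and the 12 genes are those listed with a difference from WT. Gfi1 on the same scale was at 0.413, 0.112 and 0.425 in HOM, at 0.536, 0.561 and 0.496 in HET, and at 0.562, 0.495 and 0.509 in WT. Lhx3 was at 0.155, 0.0106 and 0.303 in HOM, at 0.331, 0.229 and 0.277 in HET, and at 0.365, 0.308 and 0.424 in WT. Both lay below WT in every HOM library. Atoh1 stood above both other groups, at 0.528, 0.857 and 0.772 in HOM, 0.349, 0.222 and 0.319 in HET, and 0.329, 0.299 and 0.318 in WT. The exact permutation p was 0.1 for Gfi1, Lhx3 and Atoh1 in HOM against WT, the smallest that 3 against 3 libraries allow. These regulators and the 12 genes were all listed with a difference from WT, so these p-values are given as description. For Lhx3, HOM replicate 2 rested on 1 fragment, and HOM replicate 3 (0.303) lay just below WT replicate 2 (0.308). HOM and HET overlapped for Lhx3 and Pou4f3.

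**Figure D4:**
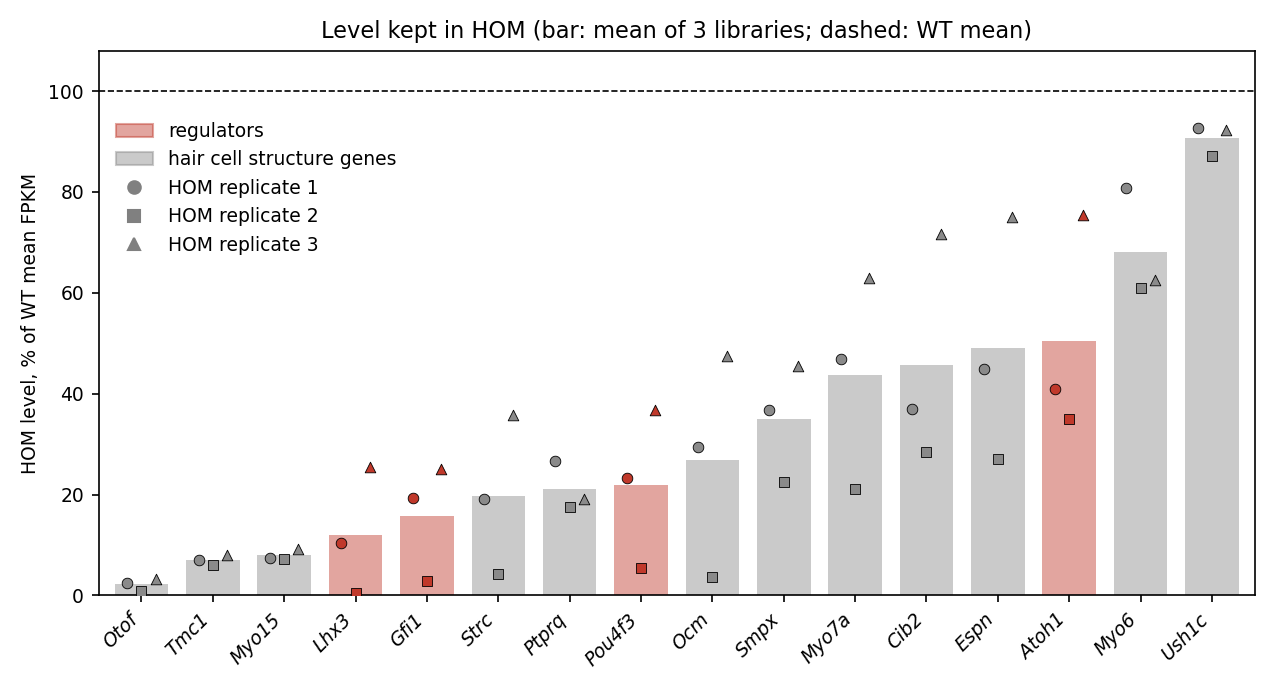
Level in HOM as a percent of the WT mean FPKM, for the 4 listed regulators and the 12 listed hair cell structure genes, sorted by the mean (bars) with each HOM library as a marker. Lhx3 and Gfi1 stand next to Otof, Tmc1 and Myo15 at the low end, Pou4f3 in the lower part, and Atoh1 near the upper end beside Espn and Myo6.

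The HOM libraries themselves differed, and the regulators followed the same order. All 4 were lowest in HOM replicate 2 and highest in HOM replicate 3. Of the 12 structure genes, 12 were lowest in replicate 2 and 9 had the full order, whereas among 794 listed genes that were lower in every HOM than in any WT library 49.6% were lowest in replicate 2 and 29.97% had the full order. The median of the structure genes was 33.2%, 19.3% and 46.5% of WT in HOM replicates 1 to 3. Atoh1 was at 40.9%, 35.0% and 75.5% of WT in these libraries, Pou4f3 at 23.2%, 5.33% and 36.8%, Gfi1 at 19.3%, 2.76% and 25.1%, and Lhx3 at 10.3%, 0.375% and 25.5%. Atoh1 stood above Pou4f3, and Pou4f3 above Gfi1, in each of the 3, whereas Lhx3 was below Gfi1 in HOM replicates 1 and 2 and slightly above it in HOM replicate 3. Without HOM replicate 2 the kept level became 58.2% for Atoh1, 30.03% for Pou4f3, 22.2% for Gfi1 and 17.9% for Lhx3. Without HOM replicate 3 it was 37.96% for Atoh1, 14.3% for Pou4f3, 11.05% for Gfi1 and 5.34% for Lhx3.

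Other regulators around this network were listed in HOM in small numbers, beside 7.35% of all expressed genes. Of 8 factors that act before or with Atoh1, only Gata3, a zinc finger factor of the prosensory domain, was listed, and it rose by 0.16 in HOM against WT (limma adjusted p = 0.0196) and by 0.19 against HET (adjusted p = 0.0303). Its level was 96.0 ± 4.40 FPKM in HOM, 84.2 ± 2.23 in HET and 86.02 ± 0.862 in WT (SD, n = 3 each). None of 9 antagonists of Atoh1, which include the Notch effectors Hes1, Hes5 and Hey1, was listed. Of 15 other hair cell regulators, 2 were listed. Casz1, a zinc finger factor, fell to 1.14 ± 0.366 FPKM in HOM, against 3.57 ± 0.245 FPKM in HET and 3.56 ± 0.275 FPKM in WT libraries (SD, 3 libraries in each group), with changes of -1.11 against HET (limma adjusted p = 0.00233) and -1.10 against WT (0.00158). Isl1, a LIM homeodomain factor also of spiral ganglion neurons and the only marker of theirs listed in HOM, rose by 0.14 in HOM against WT (limma adjusted p = 0.0211), and its difference of 0.18 against HET did not pass (0.0504).

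Among reported targets outside the 8 genes, 2 of 3 listed Pou4f3 targets of 6 fell in both HOM comparisons, where 65.4% of all listed genes passed as lower against WT and 36.3% against HET. Loxhd1, a gene of the stereocilia membrane, changed by -2.77 against WT (limma adjusted p = 7.16e-05) and -2.85 against HET (0.000229). The neurotrophin gene Bdnf changed by -0.82 (0.00646) and -0.76 (0.0121). Nr2f2, a nuclear receptor reported to be repressed by Pou4f3, was at 18.8, 18.8 and 17.9 FPKM in HOM, 17.5, 17.9 and 17.4 FPKM in HET and 20.3, 19.6 and 19.3 FPKM in WT, and did not pass in either comparison. Of 7 Atoh1 targets 2 were listed, and both fell in both comparisons, to be read beside the same shares. The small GTPase gene Rasd2 changed by -2.44 against WT (limma adjusted p = 0.00846) and -2.43 against HET (0.0121). The annexin gene Anxa4 changed by -0.36 (0.0205) and -0.54 (0.0121). The median change of all listed genes was -0.22 against WT and -0.16 against HET. In HET against WT, 0 genes of these lists passed the threshold.

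Of 9 paralogs of the 8 genes, none was listed in HOM, and only Rbm38 and Atoh8 reached the level for testing in HET against WT. Rbm38 was at 3.00 ± 0.598 FPKM in HET and 3.27 ± 0.242 FPKM in WT, and Atoh8 at 2.18 ± 0.222 FPKM in HET and 2.45 ± 0.408 FPKM in WT (SD, n = 3 each), and neither passed. Barhl2 was listed at 0 FPKM in all 6 HET and WT libraries. Pou4f2 was at 1.30, 0.48 and 0.34 FPKM in HET and 0.13, 0.71 and 1.11 FPKM in WT, and Pou4f1, the family member of spiral ganglion neurons, stayed between 0.25 and 0.72 FPKM in these libraries.

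Several of the regulators are also expressed outside hair cells, and markers of those tissues were read in HET and WT libraries. Striated muscle, where Rbm24 is active, gave less than 1 FPKM in all 6 of its markers, with summed levels of 0.97 to 1.2 FPKM in HET and 0.62 to 0.90 in WT, and Myod1 was at 0. Blood lineages, where Gfi1 is active, had 4 of 8 markers below 1 FPKM in every library and summed levels of 7.16 to 8.27 FPKM in HET and 7.21 to 8.64 in WT. Hindbrain and cerebellum, where Atoh1, Barhl1 and Nhlh1 are active, had 5 of 8 markers below 1 FPKM, Gabra6 among them at 0. Their sum was 39.4 to 44.5 FPKM in HET and 45.99 to 47.7 in WT, most of it Zic2, the 1 marker of the 8 listed in HOM, which differed by -0.12 from WT (limma adjusted p = 0.0309) and by 0.09 from HET (0.206). The tissue itself was evident from the supporting cell and tectorial membrane genes, whose 10 markers summed to 3976 to 4556 FPKM in HET and 4317 to 4384 in WT. In HOM, 3 of these 10 were listed, Epyc, Gjb2 and Gjb6, and all rose against both groups (limma adjusted p 0.00791 to 0.0239). Of all listed genes, 27.7% passed as higher against WT and 8.17% against HET, and under median-ratio scaling these counts were 354 and 257 genes in place of 307 and 89.

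Spread among HET and WT libraries was shared by many genes. On the axis with the largest share of variance (58.1%), HET replicate 1 and WT replicate 3 lay apart from the other 4 libraries. These 2 libraries held the 2 highest values in 31.4% of expressed genes and the 2 lowest in 25.15%. Hes6 and Barhl1 were among the genes with the 2 highest values there. So were 8 of 10 markers of spiral ganglion neurons, whose summed level was 144.2 to 164.4 FPKM in HET and 128.6 to 174.7 FPKM in WT, and their part in the Hes6 and Barhl1 values was not tested. Without both libraries the HET difference of Hes6 was -0.11, against 0.01 with all 6 libraries, and that of Barhl1 was -0.14, against -0.07, and neither was called in either case.

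By likeness of pattern over all 9 libraries (Pearson r of log2(FPKM + 1) among 1096 listed genes), the gene closest to Pou4f3 was the deafness gene Gipc3 (r = 0.998), and Rasd2 (0.997), Strc (0.992) and Cyp4f39 (0.992) were also among the closest. Gfi1 was closest to Fcrlb (0.999), Klhdc7b (0.995), Espnl (0.993), the acetylcholine receptor gene Chrna10 (0.992) and Gas6 (0.992). Lhx3 was closest to Lhfpl5, a part of the mechanotransduction complex (0.996), Cd164l2 (0.991), Gm30191 (0.990), Chrna10 (0.989) and Ormdl3 (0.989). Atoh1 was closest to Tjp3 (0.978), Gm21981 (0.974), Cxcl14 (0.972), Dlk2 (0.967) and Cib2 (0.966). These r values describe 9 points in 3 groups, and all genes compared share the difference between HOM and WT on which they were listed.

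The regulators not listed in HOM were compared over the 6 HET and WT libraries with 15227 genes. The r values are the highest of all these genes over only 6 points and are given as description. Hes6 and Barhl1 had HET replicate 1 and WT replicate 3 as their 2 highest libraries, as did 31.4% of expressed genes. In 25.15% of expressed genes these libraries were the 2 lowest. Hes6 was closest to the translation factor gene Eif3i (r = 0.999), and Gpx8 (0.998), the mitochondrial gene mt-Co1 (0.998) and Dut (0.998) were also among the closest. Barhl1 was closest to Noc4l (0.998), Gm13868 (0.997), Tmem53 (0.997), Fpgs (0.996) and Strc (0.995), the last of which encodes stereocilin of the hair bundle. Nhlh1 was closest to Mrpl16 (0.985), 9130023H24Rik (0.982), Mybbp1a (0.976), the supporting cell gene Lgr5 (0.973) and 1700048M11Rik (0.952). Rbm24 was closest to Ppargc1a (0.985), Ly96 (0.983), Smim3 (0.983), Zfp281 (0.976) and Ppp4r4 (0.976).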

How the data were processed

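RNA-seq libraries of P3 mouse cochlea, 3 each of HOM, HET and WT by sample title, were read as deposited. The authors gave FPKM per gene and library, rounded to 2 decimals, per the file headers; the submitters' processing notes name DESeq2 and mm8, and no aligner, counter or annotation is named in the sources used here. Total RNA had poly(A) selection or rRNA removal before random priming, per the labels' protocols. Nothing says that libraries come from separate animals, so p-values measure the spread between these libraries. Identifiers were matched to GENCODE M21 (GRCm38) symbols, for 51633 of 51912 genes. Depth was recovered from exon length and whole-fragment steps (tolerance 0.1, genes of up to 600 bp); 99.5% to 100% of low values came out whole, a check that is not independent.

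limma 3.58.1 in R 4.3.3 was run on log2(FPKM + 1) with a mean-variance trend, for genes reaching 1 FPKM in no fewer than 3 of 6 libraries. Benjamini-Hochberg adjustment was over all genes tested, with a threshold of 0.05. The fit was also run on simulated data with known changes. Its outcome is not reported here, so nothing is claimed from it about sensitivity. Permutation tests were exact and two-sided (scipy 1.17.1). The members and gene lists were chosen with earlier results of these data known. The genes named are the 8 regulators, from each list those called or the 2 that differed most, and the 5 most alike in pattern, of which 2 are not reported here; Nr2f2, the paralogs and the antisense genes were named after their values were seen.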

Additional observations from a re-analysis of the deposited data

How the results depend on the processing

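In HOM against WT, 1032 of 1109 genes passed (307 higher, 725 lower), against 639 (354 higher, 285 lower) under median-ratio and 628 (376 higher, 252 lower) under upper-quartile scaling, which moved the median change of all listed genes to -0.03 and -0.002. Under these scalings the 4 regulators kept their calls in HOM against WT, with changes of -2.06 and -2.03 (Pou4f3), -1.91 and -1.89 (Gfi1), -1.89 and -1.87 (Lhx3) and -0.63 and -0.60 (Atoh1). Leaving out a library gave 588 to 864 calls, the fewest without WT replicate 1 (588), 2 (594) or 3 (672). In HOM against HET, 485 genes passed (89 higher, 396 lower), against 516 (257 higher, 259 lower) and 541 (329 higher, 212 lower) under these scalings, with medians of -0.02 and 0.05, and 116 to 431 without a library (142 without HET replicate 2, 116 without HET replicate 3). In HET against WT, 0 passed, and 0 to 1 without a library. The calls were Rpl29 (change 5.33, without WT replicate 1) and Xist (6.04, without WT replicate 2), both higher in HET. The sex makeup of the libraries was not tested. A fit on all 9 libraries called 5 of 1131 listed genes in HET against WT, Plscr5, Mir7241, Gnpda1, Gm13373 and Myo16, named after their values were seen. None of them is a regulator treated here. The cause of these shifts was not tested.

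With the replicate number as a block, the counts were 909, 304 (HOM against HET) and 0, and no regulator's call changed. Same-numbered libraries did not deviate together throughout (r 0.0941 to 0.275 in HOM against WT, -0.324 to 0.0886 in HOM against HET and -0.519 to 0.286 in HET against WT), so the numbers were not taken as pairs. Of 244 alternative values for the regulators' changes, 221 kept direction and side of the threshold. Changes near 0 in HET against WT turned sign: upper-quartile scaling gave -0.0016 for Rbm24 and -0.00035 for Hes6, and leaving out HET replicate 1 with WT replicate 3 gave -0.11 for Hes6. Without a single library or that pair, the range was -0.20 to 0.071 for Barhl1, -0.11 to 0.14 for Rbm24, -0.090 to 0.11 for Nhlh1, -0.20 to 0.12 for Hes6 and -0.15 to 0.079 for Atoh1; Lhx3 (-0.41 to -0.19), Pou4f3 (-0.14 to -0.033) and Gfi1 (0.0011 to 0.078) kept their sign. All 24 alternative values of the levels kept in HOM and HET lay within 1 SD of those given.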
